A study of Mus musculus with 6 samples.

Results

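MHC class I presentation and the immunoproteasome were followed here through 10 mouse genes, H2-K1, H2-D1, B2m, Tap1, Tap2, Tapbp, Psmb8, Psmb9, Psmb10 and Nlrc5. They were chosen by name, as the rows of the table whose symbol in the GENCODE M21 annotation is on that list, and all 10 were found among 22442 genes. RNA was sequenced from 6 libraries of mTECs, a murine renal tubular epithelial line that the paper describes as immortalised and the labels as magnetically sorted cells. All cells had been given LPS (lipopolysaccharide, the endotoxin of Gram-negative bacteria) at 20 μg/ml for 24 h, so that no untreated group was compared. The 3 libraries labelled LPS had received a negative control, and the 3 labelled LPSKD an RNA against Stat3 (an siRNA by the labels, an shRNA in the list of reagents). LPS and LPSKD are used below as the names on the labels only. The labels do not say whether the libraries of a group came from separate cultures. The methods speak of replicate experiments in these cells but do not tie them to the libraries, so the p-values measure the spread between these libraries, which may be technical.

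Class I molecules show peptides from inside the cell to CD8+ T cells. The proteasome cuts proteins into peptides, the Tap transporter carries these into the endoplasmic reticulum, and tapasin helps to load them onto a heavy chain that is held by the light chain encoded by B2m. In inflamed cells interferons raise most of these genes, 3 immunosubunits take the place of constitutive catalytic subunits in the proteasome, and Nlrc5 acts as the transactivator of class I genes. Tubular epithelial cells can carry class I and, when inflamed, also class II molecules.

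FPKM scale the fragments of a gene to its length and to the size of the library, so that levels of different genes can be set side by side. The lengths behind these values fit the joined coding exons of most genes, and such comparisons between genes are approximate. The library totals worked out from the values lay between 24084827 and 25422171 fragments. Stat3 itself averaged 33.7 ± 2.02 FPKM in the LPS libraries and 33.4 ± 2.35 FPKM in the LPSKD libraries (SD, n = 3 each). Its log2 difference was −0.01 (95% interval −0.17 to 0.14, adjusted p = 0.944 from limma), so that the transcript did not separate the groups, and every direction below rests on the labels. The paper reports a knockdown of Stat3 in mTECs by real-time PCR and western blot, and does not tie those samples to these libraries. Of the 17 tubule and epithelial markers, 14 were above 0, and 3 of these 14 (Lrp2, Slc12a1 and Slc12a3) never exceeded 3 fragments in a library. The most abundant was Krt18, a keratin of simple epithelia, at 1290 ± 10.98 and 1164 ± 8.18 FPKM (SD, n = 3 each, log2 difference −0.15, adjusted p = 0.0319 from limma). Slc34a1, Aqp2 and Umod, which define single tubule segments, were at 0 in all 6 libraries. The renal lineage factors Pax2 (0.60, adjusted p = 0.00101) and Pax8 (0.39, adjusted p = 0.00844) and the kidney cadherin Cdh16 (0.27, adjusted p = 0.00935) rose on the log2 scale in limma's test.

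The stretches of DNA upstream of the heavy and light chain genes are shown because H2-D1, H2-K1 and B2m had close point values of the log2 difference. That closeness is not particular to them, since Psmb9 (−0.24) and Nlrc5 (−0.29) had point values near these, with wider intervals. The windows are the 250 bases before the RefSeq start site on GRCm38.p6, which were given for 8 of the 10 genes. Capitals mark matches, on either strand, to the letters searched, a set chosen after the windows were seen. These were GGGGATTCC (a kappaB site), GAAANNGAA or GAANNGAAA (the core of an interferon response element), TGACG (an X2 or CRE half-site), CCAAT (a Y box) and TTCNNNGAA (a STAT palindrome). The H2-K1 window lies at chr17:34000348-34000597 on the minus strand and the B2m window at chr2:122147437-122147686 on the plus strand.

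H2-K1: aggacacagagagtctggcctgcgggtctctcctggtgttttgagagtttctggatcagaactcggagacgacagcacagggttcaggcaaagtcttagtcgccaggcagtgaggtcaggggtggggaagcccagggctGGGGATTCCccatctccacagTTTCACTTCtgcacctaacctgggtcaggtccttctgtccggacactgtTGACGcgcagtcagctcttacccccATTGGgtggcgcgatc

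B2m: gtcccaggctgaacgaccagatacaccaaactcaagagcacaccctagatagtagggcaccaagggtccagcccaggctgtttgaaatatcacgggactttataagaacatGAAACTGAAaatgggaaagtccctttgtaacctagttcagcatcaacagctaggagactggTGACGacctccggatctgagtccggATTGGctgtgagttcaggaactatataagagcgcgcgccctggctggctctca

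H2-D1 carries the kappaB letters and the interferon response core in the same arrangement as H2-K1. The 30 bases from the start of the kappaB match to the end of the core lie at chr17:35262923-35262952 on the plus strand in H2-D1 and at chr17:34000429-34000458 on the minus strand in H2-K1, and 29 of them are identical.

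H2-D1: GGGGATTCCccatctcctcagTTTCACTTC

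H2-K1: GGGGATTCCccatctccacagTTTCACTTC

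Over the aligned part of both 250-base windows, 161 of 177 bases are identical (91%). Among 27025 windows of the same length, 0.218% hold the kappaB letters, 12.6% the interferon response core, 17.9% the half-site, 34.5% the Y box and 7.18% the STAT palindrome. Because the letters were chosen after the windows were seen, these shares are no test of enrichment. The B2m window holds the core, the half-site and the Y box. Psmb9 and Tap1 point away from each other with 225 bases between their RefSeq start sites (chr17:34187331-34187555), and that stretch holds the half-site and the Y box. In GENCODE M21 the windows of H2-D1, Psmb8 and Tapbp and the stretch between Psmb9 and Tap1 lie wholly within annotated exons, as do 52 bases of the Psmb10 window and 1 base of the B2m window, and the H2-K1 window lies in none. Of the other windows, Psmb8 holds the STAT palindrome, Tapbp holds Y boxes and Psmb10 holds none of these letters. A match is a description of the letters and shows no binding.

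The members that encode heavy and light chains, H2-D1, H2-K1 and B2m, averaged between 82.9% and 84.7% of their LPS means in the LPSKD libraries. Of these, H2-D1 passed the test. H2-D1 (ENSMUSG00000073411, chr17:35262730-35267499 on GRCm38) encodes a classical heavy chain. It had 197, 190 and 191 FPKM in the LPS libraries and 154, 158 and 167 FPKM in the LPSKD libraries. All 3 LPSKD libraries were below all 3 LPS libraries, and the spread within each group was small. The means were 193 ± 4.08 and 160 ± 6.67 FPKM (SD, n = 3 each), a log2 difference of −0.27 (standard error 0.04, 95% interval −0.36 to −0.18, adjusted p = 0.0098 from limma). It was the only one of the 9 members tested with an adjusted p under 0.05, and it was lower. Among all 11723 genes tested, 379 (3.23%) passed and 195 (1.66%) passed with a lower level. That count of 379 was 158 without replicate 3 of the LPS libraries, and 178, 192 and 168 without replicates 1, 2 and 3 of the LPSKD libraries. Without replicate 2 of the LPSKD libraries H2-D1 had an adjusted p of 0.0506, and without limma's variance trend 0.0754.

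H2-K1 (ENSMUSG00000061232, chr17:33996017-34000347) encodes the other classical heavy chain of this annotation. Its FPKM was 57.2, 62.0 and 55.2 in the LPS libraries and 42.7, 55.6 and 49.4 in the LPSKD libraries. The groups overlapped by a narrow margin, since replicate 2 of the LPSKD libraries was above replicate 3 of the LPS libraries. The log2 difference was −0.25 (standard error 0.09, 95% interval −0.46 to −0.04), with an adjusted p of 0.219 from limma. The difference between the responses of H2-K1 and H2-D1 was 0.02 on the log2 scale (95% interval −0.31 to 0.35, exact permutation test, p = 0.8, adjusted p = 1 over 6 pairs). Fragments of these genes can be shared, because 40.1% of the 31-base stretches in the coding sequence of H2-D1 and 26.1% of those of H2-K1 also occur in transcripts of other genes. Each is among the genes with which the other shares the most stretches, so that their values may not be independent. The haplotype of the line is not given in the sources used here, and a class I allele other than the reference would be counted differently.

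B2m (ENSMUSG00000060802, chr2:122147686-122153083) was the most abundant member. It stood at 499, 583 and 538 FPKM in the LPS libraries and at 452, 482 and 426 FPKM in the LPSKD libraries. The groups did not overlap, although replicate 1 of the LPS libraries lay close to replicate 2 of the LPSKD libraries. Its log2 difference was −0.25 (standard error 0.06, 95% interval −0.40 to −0.11), and its adjusted p of 0.082 from limma missed the threshold. It passed with quantile normalization (adjusted p = 0.0253), with voom weights on fragments (adjusted p = 0.0238) and without replicate 1 of the LPS libraries (adjusted p = 0.035). It passed in none of the other alternatives. There its adjusted p from limma reached 0.22 without the variance trend and 0.243 without replicate 3 of the LPSKD libraries. B2m over the sum of H2-K1 and H2-D1, a ratio chosen after the values were seen and not tested, was 2.16 ± 0.180 in the LPS libraries and 2.18 ± 0.180 in the LPSKD libraries (SD, n = 3 each). In bulk RNA, fewer cells of a type and less RNA per cell cannot be told apart.

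**Figure D1:**
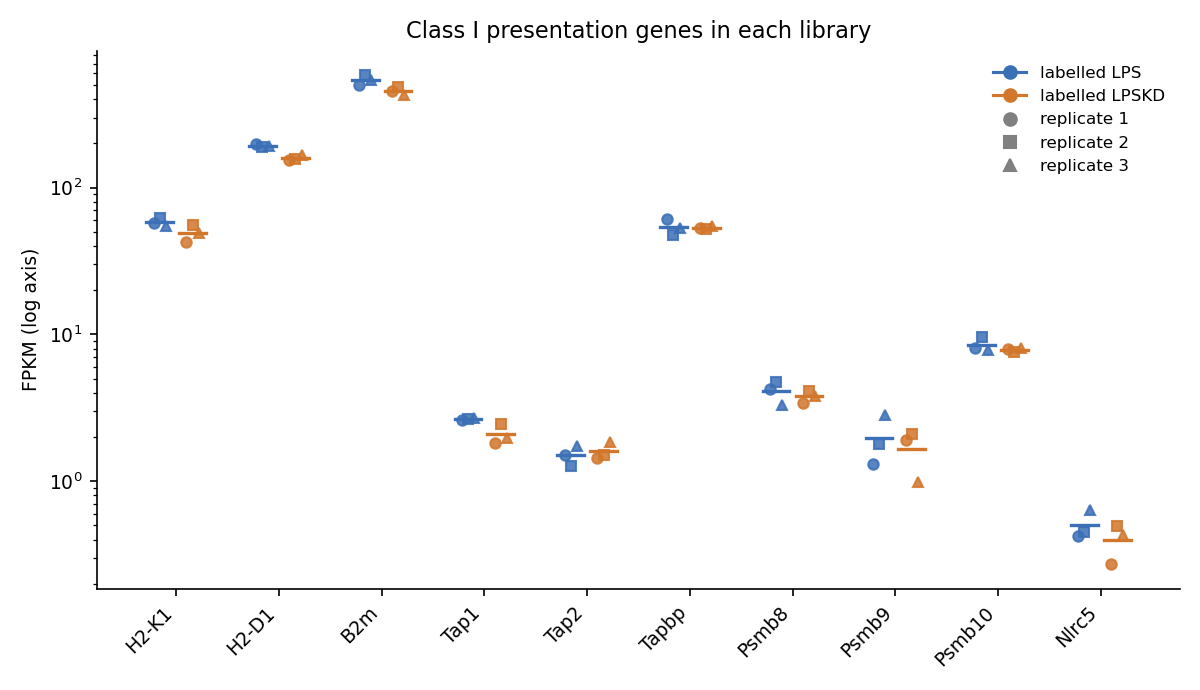
FPKM of the 10 members (log axis) in each library, with LPS libraries in blue and LPSKD libraries in orange; marker shape gives the replicate and the line the mean of 3. Levels run from B2m at 540 FPKM to Nlrc5 at 0.506 FPKM in the LPS libraries, and the groups are apart for H2-D1, B2m and Tap1.

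The peptide transporter and its partner did not move together in their point values, but no difference between them passed a test. Tap1 (ENSMUSG00000037321, chr17:34187553-34197225), a chain of the transporter, had 2.61, 2.64 and 2.69 FPKM in the LPS libraries and 1.82, 2.45 and 1.97 FPKM in the LPSKD libraries. The groups did not overlap, yet the log2 difference of −0.34 had a wide error (standard error 0.17, adjusted p = 0.341 from limma). The 3 LPS libraries held 141 to 143 Tap1 fragments, so that they varied by 1.63% where counting alone gives 8.38%. With H2-D1, B2m and Tap1, 3 of the 9 members tested had groups that did not overlap and lower values in the LPSKD libraries, against 13.2% of all genes tested. In a two-sided exact permutation over 6 libraries the smallest possible p is 0.1, and H2-D1, B2m and Tap1 each had that value.

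Tap2 (ENSMUSG00000024339, chr17:34203527-34216321), the other chain of the transporter, had 1.51, 1.28 and 1.73 FPKM in the LPS libraries and 1.44, 1.498 and 1.85 FPKM in the LPSKD libraries. The groups overlapped, with a log2 difference of 0.08 (95% interval −0.41 to 0.57, adjusted p = 0.89 from limma). Tapbp (ENSMUSG00000024308, chr17:33915899-33929292), which encodes tapasin, had 60.7, 47.6 and 53.3 FPKM in the LPS libraries and 52.8, 52.3 and 54.4 FPKM in the LPSKD libraries. The LPSKD values all lay inside the range of the LPS values. The log2 difference of Tapbp was −0.01, with a 95% interval from −0.20 to 0.17 (adjusted p = 0.96 from limma). Tap1 changed relative to Tap2 by −0.45 on the log2 scale (95% interval −1.04 to 0.15) and relative to Tapbp by −0.35 (95% interval −0.83 to 0.13), each with an exact permutation p of 0.2 and an adjusted p of 0.6 over 6 pairs.

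Tapbp stood far above both transporter chains, at 53.9 ± 6.57 FPKM in the LPS libraries against 2.65 ± 0.0432 FPKM for Tap1 and 1.504 ± 0.226 FPKM for Tap2 (SD, n = 3 each). In the order of mean level in the LPS libraries, B2m was followed by H2-D1, H2-K1, Tapbp, Psmb10, Psmb8, Tap1, Psmb9, Tap2 and Nlrc5. Neighbours in that order had ranges that overlapped for H2-K1 and Tapbp, Tap1 and Psmb9, and Psmb9 and Tap2, and the other neighbours did not overlap, in each group of libraries. H2-K1 was 1.08 times Tapbp in the LPS libraries and 0.925 times Tapbp in the LPSKD libraries, so that their order turned within overlapping ranges. B2m ranked 196th by mean FPKM among all genes of the table and Nlrc5 11813th.

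The immunosubunits were low and none passed the test. Psmb10 (ENSMUSG00000031897, chr8:105935735-105938444) had 8.05, 9.61 and 7.80 FPKM in the LPS libraries and 7.92, 7.55 and 8.07 FPKM in the LPSKD libraries. Psmb8 (ENSMUSG00000024338, chr17:34197721-34201454) had 4.22, 4.75 and 3.31 FPKM in the LPS libraries and 3.43, 4.11 and 3.80 FPKM in the LPSKD libraries. The groups overlapped for both, with log2 differences of −0.11 (95% interval −0.34 to 0.13, adjusted p = 0.657 from limma) for Psmb10 and −0.10 (95% interval −0.47 to 0.27, adjusted p = 0.805 from limma) for Psmb8. Without replicate 2 of the LPS libraries the log2 difference of Psmb10 was −0.014. Psmb9 (ENSMUSG00000096727, chr17:34181987-34187764) had 1.31, 1.78 and 2.85 FPKM in the LPS libraries and 1.90, 2.09 and 0.989 FPKM in the LPSKD libraries. It held the highest and the lowest of its 6 values in the libraries numbered 3 of each label. Only 17 to 47 Psmb9 fragments were counted per library, and the LPS values varied by 39.8% where counting alone gives 17.4%. Its log2 difference was −0.24 (standard error 0.35, 95% interval −1.04 to 0.57).

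Each immunosubunit takes the place of 1 constitutive subunit, and the ratio within a library does not depend on how libraries are scaled. Psmb8 stood at 5.07% ± 0.617 of Psmb5 in the LPS libraries and at 4.52% ± 0.525 in the LPSKD libraries (SD, n = 3 each). Psmb9 stood at 1.006% ± 0.420 and 0.805% ± 0.275 of Psmb6 (SD, n = 3 each). Psmb10 stood at 4.99% ± 0.464 and 4.48% ± 0.331 of Psmb7 (SD, n = 3 each). The constitutive transcripts were thus in large excess in both groups. The ratios differed between the groups by −0.16, −0.31 and −0.15 on the log2 scale, with exact permutation p of 0.4, 0.6 and 0.2 and an adjusted p of 0.6 over the 3 pairs for each. Their 95% intervals ran from −0.56 to 0.23, from −1.61 to 0.99 and from −0.43 to 0.12. With 1 library left out they lay between −0.26 and −0.074, between −0.56 and 0.017, and between −0.23 and −0.091. Psmb5, Psmb6 and Psmb7 themselves had log2 differences of 0.06, 0.06 and 0.05 (limma, adjusted p = 0.745, 0.527 and 0.69). For Psmb5, 81% of the 31-base stretches of its coding sequence also occur in transcripts of other genes.

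**Figure D2:**
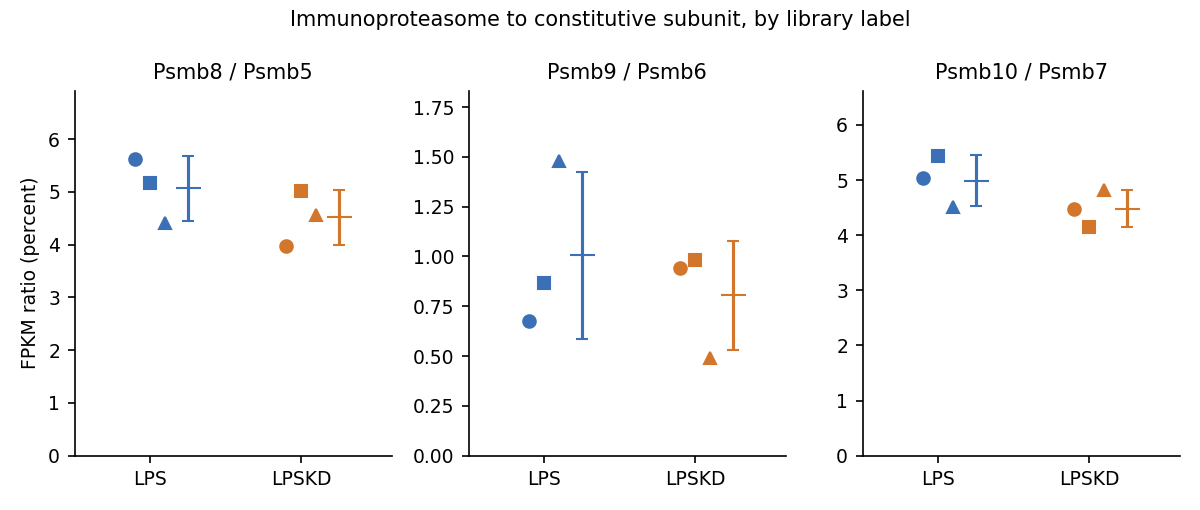
Ratio of FPKM of each immunosubunit to the constitutive subunit it replaces, in percent, in each library; marker shape gives the replicate, and the bar to the right of the points is the mean ± SD of 3 libraries. The groups overlap in all 3 panels, and Psmb9 runs from 0.489% to 1.48% of Psmb6.

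Among themselves, the immunosubunits gave no difference in response that passed a test. Psmb9 against Psmb8 differed by −0.15 (95% interval −1.73 to 1.42, exact permutation p = 0.9), Psmb9 against Psmb10 by −0.15 (95% interval −1.57 to 1.27, exact permutation p = 0.8) and Tap1 against Psmb9 by −0.11 (95% interval −1.34 to 1.12, exact permutation p = 1) on the log2 scale. The adjusted p was 1 for each over the 6 pairs of members compared.

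Nlrc5 (ENSMUSG00000074151, chr8:94434356-94527272), the class I transactivator, was the lowest member. It had 0.426, 0.453 and 0.638 FPKM in the LPS libraries and 0.272, 0.496 and 0.430 FPKM in the LPSKD libraries, from 41 to 94 fragments each. The groups overlapped. Its mean was under the filter of 0.5 FPKM, so that its log2 difference of −0.29 (95% interval −1.01 to 0.43, adjusted p = 0.742) was taken from limma's fit of all 16837 genes above 0. Over the 9 members tested the median log2 difference was −0.24, with 8 values below 0 and 1 above. Over all 11723 genes tested the median was −0.01, with 6154 values below 0.

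**Figure D3:**
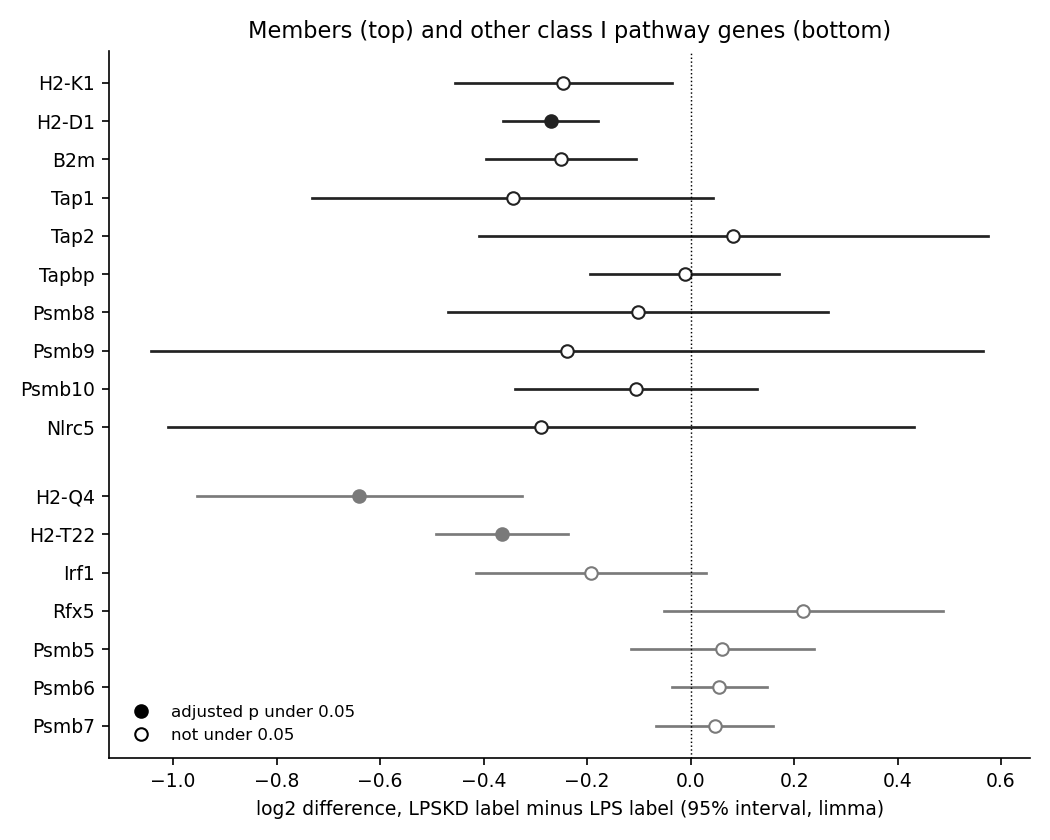
Log2 difference between the libraries labelled LPSKD and LPS with its 95% interval (limma), for the 10 members above and 7 other class I pathway genes below; filled points have an adjusted p under 0.05. H2-D1, H2-Q4 and H2-T22 are filled and lie below 0, and the intervals of Tap2, Psmb9 and Nlrc5 are wide.

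Of 53 other genes of the class I pathway reported here, 46 were tested, 2 were lower with an adjusted p under 0.05 and 0 were higher. Among all genes tested, 1.66% passed with a lower level and 3.23% in either direction. The non-classical heavy chain gene H2-T22 fell from 29.4 ± 1.26 to 22.8 ± 0.672 FPKM (SD, n = 3 each, log2 difference −0.36, adjusted p = 0.0114 from limma). H2-Q4, another non-classical heavy chain gene, fell from 7.42 ± 0.642 to 4.75 ± 0.796 FPKM (SD, n = 3 each, log2 difference −0.64, adjusted p = 0.0469 from limma). H2-T22 and H2-Q4 share 59.7% and 60.7% of their 31-base stretches with other genes. H2-D1 is among the genes with which H2-Q4 shares the most stretches, and how far this enters the value of H2-Q4 was not tested. H2-Q4 lost its call with a filter at 0.1 FPKM, with no filter, with quantile normalization, without the variance trend and with the replicate block. With 1 library left out, H2-Q4 passed in 1 of 6 fits, without replicate 3 of the LPSKD libraries, and H2-T22 in 3 of 6, without replicate 1 or 2 of the LPS libraries or replicate 1 of the LPSKD libraries.

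By role, the 12 other heavy chain genes tested had a median log2 difference of −0.30, with 9 below 0, beside 6154 of all 11723 genes tested. The 7 genes of the loading complex and its chaperones had a median of −0.01, the 7 of peptide supply and trimming −0.02, and the 6 of the proteasome activator and assembly −0.07, and none of these 20 passed. The 11 class I transcription factors reported here had a median of 0.07, and none passed. Irf1, an interferon-induced factor, had 17.8 ± 2.37 and 15.4 ± 0.612 FPKM (SD, n = 3 each, log2 difference −0.19, adjusted p = 0.353 from limma). Rfx5, a subunit of the factor that binds the X box of class I and class II promoters, had 9.18 ± 1.18 and 10.7 ± 1.10 FPKM (SD, n = 3 each, log2 difference 0.22, adjusted p = 0.387 from limma).

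The neighbouring class II pathway was measured for comparison with 13 genes, of which 12 had a row and 7 were tested. None had an adjusted p under 0.05 from limma. An unadjusted p under 0.05 was found for 1 of the 7, for 3 of the 9 members tested and for 17.6% of all genes tested. That class II gene was H2-DMa, a chain of the peptide exchange factor, at 3.30 ± 0.135 and 2.34 ± 0.187 FPKM (SD, n = 3 each, log2 difference −0.48, adjusted p = 0.132 from limma). Cd74, the invariant chain, was its most abundant gene at 28.7 ± 2.91 and 31.9 ± 1.54 FPKM (SD, n = 3 each, log2 difference 0.16, adjusted p = 0.355 from limma). Ciita, the class II transactivator, lay between 0.0107 and 0.254 FPKM, from 1 to 23 fragments. The median log2 difference of the 7 tested class II genes was −0.05.

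H2-K1 and H2-D1 mark an interval of chromosome 17 (chr17:33996017-35267499) in which 54 genes were tested. Of these, H2-D1 and Ddx39b were lower and Hspa1b was higher with an adjusted p under 0.05 from limma, and the median log2 difference was 0.00. Among all genes tested, 3.23% passed in either direction. Ddx39b, an RNA helicase gene, had a log2 difference of −0.19 (adjusted p = 0.0297 from limma), and Hspa1b, a heat shock protein gene, of 0.76 (adjusted p = 0.00602 from limma).

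Other cells that carry class I molecules were followed by their markers. The summed FPKM of 15 immune cell markers lay between 68.9 and 75.0 in the LPS libraries and between 70.1 and 76.8 in the LPSKD libraries, and 2 of the 15 never exceeded 3 fragments in a library. Csf1r, the receptor of macrophage colony-stimulating factor, was the most abundant of them and rose from 24.4 ± 2.74 to 33.3 ± 0.583 FPKM (SD, n = 3 each, log2 difference 0.45, adjusted p = 0.0208 from limma). Of the 7 immune markers tested, Csf1r was the only one with a log2 difference above 0, and their median was −0.30, beside −0.24 for the 9 members tested. The similar sums thus mix the rise of Csf1r with lower point values of the other markers tested. Cd68, a lysosomal protein of macrophages, had 13.7 ± 1.20 and 11.1 ± 1.34 FPKM (SD, n = 3 each) with groups that did not overlap, a log2 difference of −0.30 and an adjusted p of 0.197 from limma. The part of immune cells in the members' values was not tested. Ptprc, which all leukocytes carry, lay between 0.372 and 1.08 FPKM. The summed FPKM of 8 endothelial and fibroblast markers lay between 25.6 and 33.1 in the LPS libraries and between 17.6 and 32.8 in the LPSKD libraries. The most abundant of these, Dcn of fibroblasts, had 15.3, 14.1 and 11.8 FPKM in the LPS libraries and 8.48, 14.0 and 13.6 FPKM in the LPSKD libraries.

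Replicate 1 of the LPSKD libraries had the lowest value of its group for 6 of the 10 members and the highest for 0. It also had the lowest sum of endothelial and fibroblast markers and the lowest Ptprc of all 6 libraries, and the part of these cells in its values was not tested. Without it, the log2 difference was −0.15 for H2-K1, −0.26 for Tap1 and −0.09 for Nlrc5, while H2-D1 stood at −0.25 (adjusted p = 0.0499 from limma) and B2m at −0.25.

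**Figure D4:**
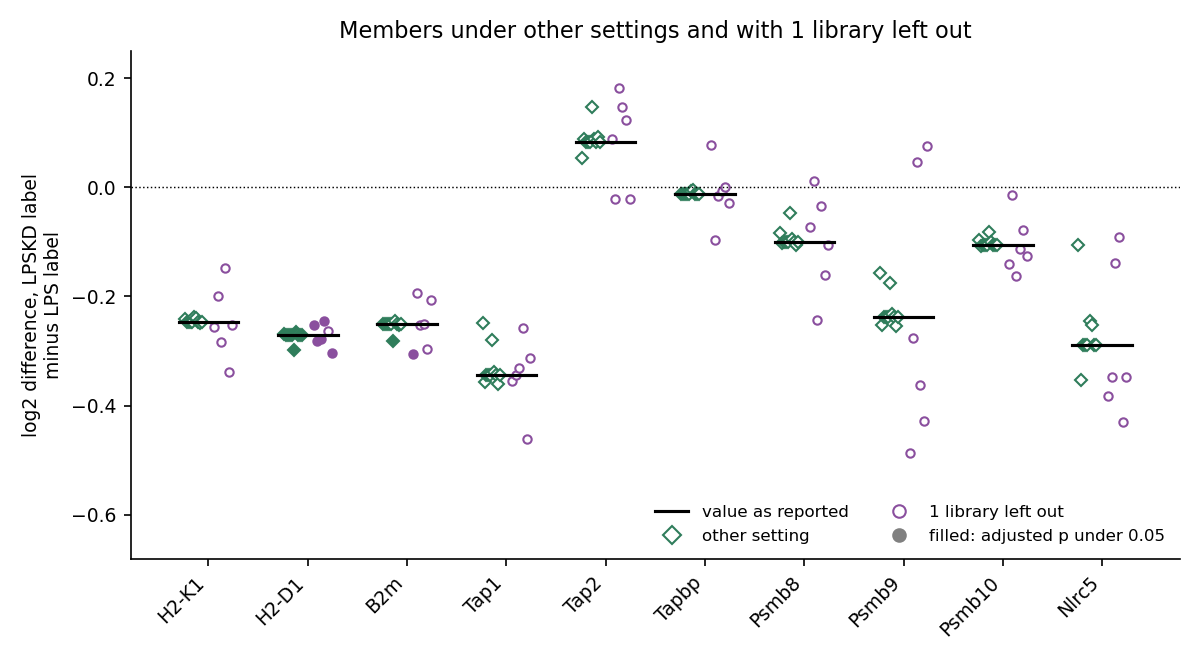
Log2 difference of each member as reported (black line), under the other settings (green diamonds) and with 1 library left out (purple circles); filled marks have an adjusted p under 0.05. H2-D1, H2-K1, B2m, Tap1, Psmb10 and Nlrc5 stay below 0 throughout, and the marks of Tap2, Tapbp, Psmb8 and Psmb9 fall on both sides of 0.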

How the data were processed

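The authors deposited FPKM values, 1 per gene and library, from poly(A) RNA read as paired ends. The submitters' processing notes name HISAT2 2.0, StringTie 1.3.0 and Bowtie 0.12.2 and the builds mm8 and GRCh38.p13, with no role for each. The identifiers match GENCODE M21 on GRCm38, whose coordinates are given. Library totals and fragments were worked out from the FPKM values. For 97.7% of the 16837 genes above 0 these came out whole (within 0.001 fragments) at the length of the joined coding exons plus 0 to 10 bases. The counting error from these numbers covers counting only, and the spread between libraries was above it for 9 of the 10 members in the LPS libraries and 7 in the LPSKD libraries.

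Groups were tested with limma 3.58.1 (R 4.3.3), using eBayes with a variance trend, on log2(FPKM + 0.1). Genes entered at a mean of 0.5 FPKM or more, and p-values were adjusted over all of them (Benjamini-Hochberg). Differences on this scale understate changes of low genes. Ratios of 2 genes were compared by two-sided exact permutation over the 20 assignments of labels, and their intervals by the pooled spread. The script was tested on simulated data with a spread of 10% between libraries. It called 98 of 98 genes changed by 1 on the log2 scale, but only 13 of 100 changed by 0.3. At that spread, a gene that did not pass may still have changed by 0.3. Some low members varied more, such as Psmb9 (39.8%) and Nlrc5 (22.8%) in the LPS libraries, and the simulated shares do not hold for them. Alternatives were pseudocounts of 1 and 0.01, filters at 1 and 0.1 and none, quantile normalization, median centring, no trend, voom on the fragments, a replicate block and the omission of each library.

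The text names all members, Stat3, listed genes with an adjusted p under 0.05, Psmb5, Psmb6, Psmb7, Irf1, Rfx5, Ciita and Cd74, and the most abundant gene of each marker list. Slc34a1, Aqp2, Umod, Lrp2, Slc12a1, Slc12a3, Ptprc, Cd68, H2-DMa, Ddx39b and Hspa1b were named after their values were seen. An item of the lists is not reported here and is left out of their counts. The members and lists were chosen with earlier results of these data known. Promoter sequences are from RefSeq.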

Additional observations from a re-analysis of the deposited data

How the results depend on the processing

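The count of 379 genes became 140 without limma's trend, 591 with voom and 213 with the replicate block, and lay between 158 and 356 with 1 library left out. The count of 1 member became 0 without the trend, 2 with quantile normalization and 2 with voom, and lay between 0 and 2 with 1 library left out. The count of 2 other class I pathway genes became 4 with voom, which added Nfkb1 and Npepps as higher, became 1 (H2-Q4 was lost) with a filter at 0.1, no filter, quantile normalization, no trend or the replicate block, and lay between 0 and 1 with 1 library left out. The class II count was 0 under each of these settings. Nlrc5 had no voom value, since it was under the filter. With 1 library left out the log2 difference of Stat3 lay between −0.064 and 0.044. Likewise the Psmb8 to Psmb5 ratio lay between −0.26 and −0.074, Psmb10 to Psmb7 between −0.23 and −0.091, Psmb9 to Psmb6 between −0.56 and 0.017, H2-K1 to H2-D1 between −0.076 and 0.098, Psmb9 to Psmb8 between −0.44 and 0.29, Psmb9 to Psmb10 between −0.38 and 0.21, and Tap1 to Psmb9 between −0.41 and 0.15. Of the members, Tap2 lay between −0.022 (without replicate 2 of the LPS libraries) and 0.18, Tapbp between −0.097 and 0.078 (without replicate 1 of the LPS libraries), Psmb8 between −0.24 and 0.012 (without replicate 2 of the LPS libraries), Psmb10 between −0.16 and −0.014 (without replicate 2 of the LPS libraries), and Psmb9 between −0.49 and 0.075 (without replicate 3 of the LPSKD libraries). Tap2 was also below 0 without replicate 3 of the LPSKD libraries (−0.021), Psmb9 above 0 without replicate 3 of the LPS libraries (0.047) and Tapbp without replicate 2 of the LPSKD libraries (0.00016). The cause of these changes was not tested. Same-numbered libraries did not deviate together (correlations −0.016, −0.004 and −0.043), so the numbers were not taken as pairs. With the replicate block H2-D1 had an adjusted p of 0.0423 from limma, and an exact sign-flip test of the ratios cannot go below 0.25. Psmb9, Tap2, Psmb8 and Nlrc5 had fewer than 100 fragments in each library. Psmb9, Tap2 and Nlrc5 also varied by more than counting alone gives in both groups, and Psmb8 did so in the LPS libraries.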
